A study of Mus musculus with 12 samples.

Results

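The interferon-stimulated genes examined here are 39 mouse genes listed by name, and they were found by their NCBI Gene numbers among the 27179 genes of 1 table of whole-kidney RNA abundances. All 39 were listed, and 37 passed the filter for testing (at least 3 of the 12 libraries with a TPM of 1 or more, which 14972 genes met), while Oas3 and Mx1 did not. TPM is a gene's share of the RNA molecules of a library, corrected for gene length and scaled to a fixed total. The rule names genes of a known family and uses no measured value.

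The 12 libraries came from 12 mice of mixed strain background, aged 8 to 12 weeks, with 3 mice in each of 4 groups. Wild-type mice and FAN1KO mice (labelled {Gamma}GT1-Cre;Fan1-/-, in which Cre driven by Ggt1 removes the DNA repair nuclease FAN1 from proximal tubule cells) were given saline or cisplatin, a DNA crosslinking drug, by weekly intraperitoneal injection of 2 mg/kg for 5 weeks. Other cells of the FAN1KO kidney keep the gene, and the libraries hold RNA of the whole organ. Each p-value below measures the spread between mice.

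Interferons are secreted proteins that bind receptors on neighbouring cells and switch on an antiviral gene program. Type I and type III interferons act through the kinases JAK1 and TYK2 and a complex that holds STAT2 and IRF9 and binds the interferon-stimulated response element (ISRE) in promoters. Interferon gamma acts through another complex, which binds the gamma-activated sequence (GAS). The proteins made include sensors of foreign or misplaced nucleic acid, enzymes and binding proteins that block viral RNA, the ubiquitin-like modifier ISG15 and large GTPases that attack vacuoles of intracellular microbes. In kidney, the program is known to respond to infection, autoimmunity, ischaemia and self nucleic acid.

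The promoters of the members were read first because the ISRE is the feature these genes are known to share, and because the gene list did not use it. A RefSeq promoter (assembly GRCm38.p6, 250 bases before to 50 after a start site) was matched for 28 of 39 members, which gave 32 promoters. The ISRE core letters, GAAA then any 2 bases then GAAA, searched on both strands, lay in 18 of the 32 (56.2%) and in 3.37% of all 22271 promoters. The GAS core TTCNNNGAA, which reads the same on both strands, lay in 7 of the 32 (21.9%) and in 7.81% of all promoters. A match is a description of letters, not evidence of binding. By role, the ISRE letters were found in 5 of 5 guanylate-binding and immunity-related GTPase genes with a promoter in the table, 4 of 7 IFIT, OAS and MX genes, 5 of 9 genes of the ISG15 system and other effectors, 3 of 6 sensors and signalling genes and 0 of 1 gene of the PARP9, DTX3L and PARP14 group.

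The following stretches upstream of start sites are shown to make the shared letters visible in genes that differ in their response. Each is written 5′ to 3′ on the strand of its gene, and capitals mark the ISRE core or its reverse complement, merged where matches overlap. Ifit1, Ifit3, Isg15, Oas1a, Bst2 and Gbp7 were higher in cisplatin-treated than in saline-treated FAN1KO kidneys, and Rsad2 was not.
Ifit1, chr19:34640765-34640833 (+): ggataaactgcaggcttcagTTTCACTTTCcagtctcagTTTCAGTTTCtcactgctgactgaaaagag
Ifit3, chr19:34583353-34583436 (+): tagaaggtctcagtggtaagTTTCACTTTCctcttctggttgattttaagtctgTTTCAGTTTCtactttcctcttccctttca
Isg15, chr4:156200855-156200916 (-): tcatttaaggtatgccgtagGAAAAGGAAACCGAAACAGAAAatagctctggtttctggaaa
Oas1a, chr5:120907526-120907565 (-): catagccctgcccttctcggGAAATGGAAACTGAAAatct
Bst2, chr8:71537567-71537622 (-): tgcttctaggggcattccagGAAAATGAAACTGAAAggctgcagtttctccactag
Gbp7, chr3:142530263-142530312 (+): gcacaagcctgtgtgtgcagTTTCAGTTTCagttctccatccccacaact
Rsad2, chr12:26456543-26456592 (-): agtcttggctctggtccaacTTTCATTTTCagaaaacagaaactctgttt
Isg15 held 3 overlapping matches between 78 and 66 bases before its start site, and Ifit1 held 2 separate ones. Among tested members with the letters, 11 of 16 were higher after cisplatin in FAN1KO kidneys with a median log2 fold change of 1.18. Among tested members whose promoters lacked them, 8 of 11 were higher with a median of 1.23. Of all genes tested, 34.9% were called higher in that comparison, and their median was 0.37.

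Reads per library are not stated by the study. TPM values of low genes step by 1 read, and reads worked back from those steps totalled 37202167 to 82947593 per library. Fan1 RNA was 1.17 to 3.80 TPM and overlapped between genotypes, so that it did not check the labels of a deletion limited to proximal tubule cells. Kidney markers were present in every library, with Slc34a1 of the proximal tubule at 837 to 3689 TPM, Umod of the thick ascending limb at 921 to 2444 and Aqp2 of the collecting duct at 141 to 1292. In each group 1 library stood apart. FAN1KO cisplatin 3, FAN1KO saline 1, wild-type saline 3 and wild-type cisplatin 1 held Y-linked RNA (mean log2(TPM + 1) of 3.46 to 3.93 against at most 0.10 in the other 8). On the second principal component (21.2% of the variance) these 4 lay at -40.4 to -24.5, FAN1KO cisplatin 1 and 2 at -19.4 and -22.0, and the other 6 libraries at 19.0 to 33.4. The endothelial gene Pecam1 was also lowest of its group in each of these 4 libraries, at 5.31, 9.78, 8.72 and 8.99 TPM in the order just given. The labels give neither sex nor batch.

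Cisplatin in FAN1KO kidneys gave the broadest change among interferon-stimulated genes. By limma on log2(TPM + 1), 26 of 37 members tested were higher in FAN1KO cisplatin than FAN1KO saline kidneys at an adjusted p under 0.05 (70.3%), where 34.9% of all genes tested were called higher, and 0 were lower. Their median log2 fold change was 1.21 against 0.37 over all genes tested. In 26 of 39 members all 3 cisplatin values lay above all 3 saline values, 24 of them tested (64.9%), where 47.4% of all genes tested did so. Dividing each library by its median ratio to the others moved the median of all genes to 0.04 and that of the members to 0.85, and left 17 members higher and 1, Cmpk2, lower, beside 17.2% of all genes higher and 12.7% lower in place of 34.9% and 4.9%. No called member changed sign under that scaling.

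**Figure D1:**
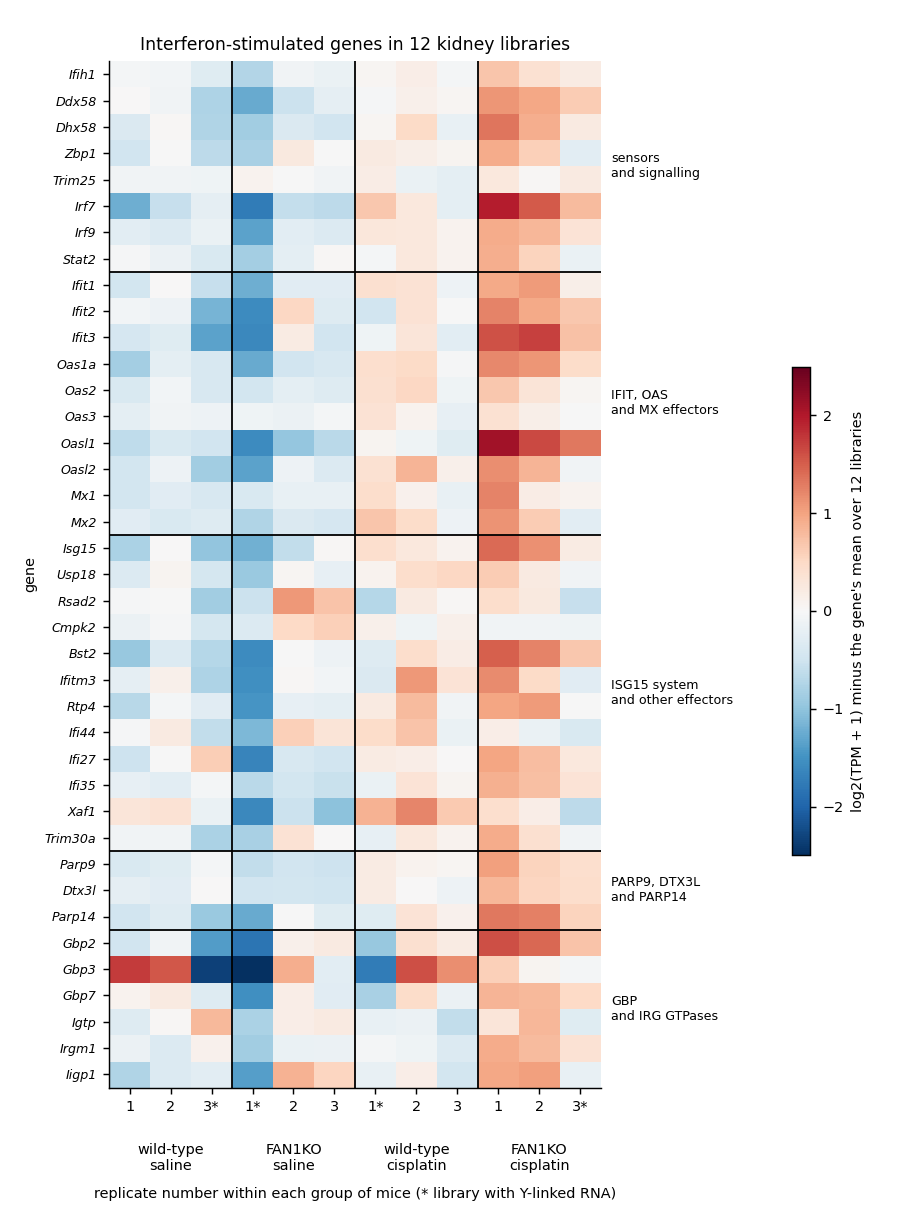
Heat map of the 39 interferon-stimulated genes (rows, grouped by role) in the 12 libraries (columns, replicates 1 to 3 of each group, asterisks for libraries with Y-linked RNA). Colour is log2(TPM + 1) minus the gene's mean over the 12 libraries, red for higher and blue for lower, and values beyond the scale take its end colour. FAN1KO cisplatin 1 and 2 are red in most rows, FAN1KO cisplatin 3 is paler, and FAN1KO saline 1 is blue in most rows.

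Between genotypes under cisplatin the share of members called was close to that of all genes. Higher levels in FAN1KO than wild-type cisplatin kidneys were called for 7 of 37 members (18.9%) by limma, where 19.6% of all genes tested were called higher, and 0 members were called lower. The 7 were Oasl1, Ifit3, Irgm1, Ddx58, Ifi35, Dtx3l and Parp9. The median log2 fold change of members was 0.55 against 0.24 over all genes, and 32 of 37 were above 0. All 3 FAN1KO values lay above all 3 wild-type values for 16 members (43.2%), beside 35.7% of all genes tested, and below them for 1, Xaf1 (2.7%), beside 8.6% of all genes. With median-ratio scaling the medians became 0.29 for members and 0.01 for all genes, only Oasl1 was still called higher, and Xaf1 was called lower, beside 10.0% of all genes higher and 7.79% lower in place of 19.6% and 4.37%. The 6 members Trim25, Oas2, Oasl2, Mx2, Rsad2 and Ifitm3, none of them called, turned from above to below 0 with it.

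That count changed when a library was left out. The share of all genes called in such fits was not worked out, so the change is not shown to be particular to the members. Without wild-type cisplatin 1, 2 or 3 in turn, 4, 3 and 1 members were called higher, and without FAN1KO cisplatin 1, 2 or 3, 1, 1 and 10 were. Oasl1 was the 1 member called whichever library was left out. After cisplatin in FAN1KO kidneys, 15 of the 26 calls held whichever library was left out, and the count was 17 without FAN1KO saline 1, 15 without FAN1KO cisplatin 1 and 17 without FAN1KO cisplatin 2.

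**Figure D2:**
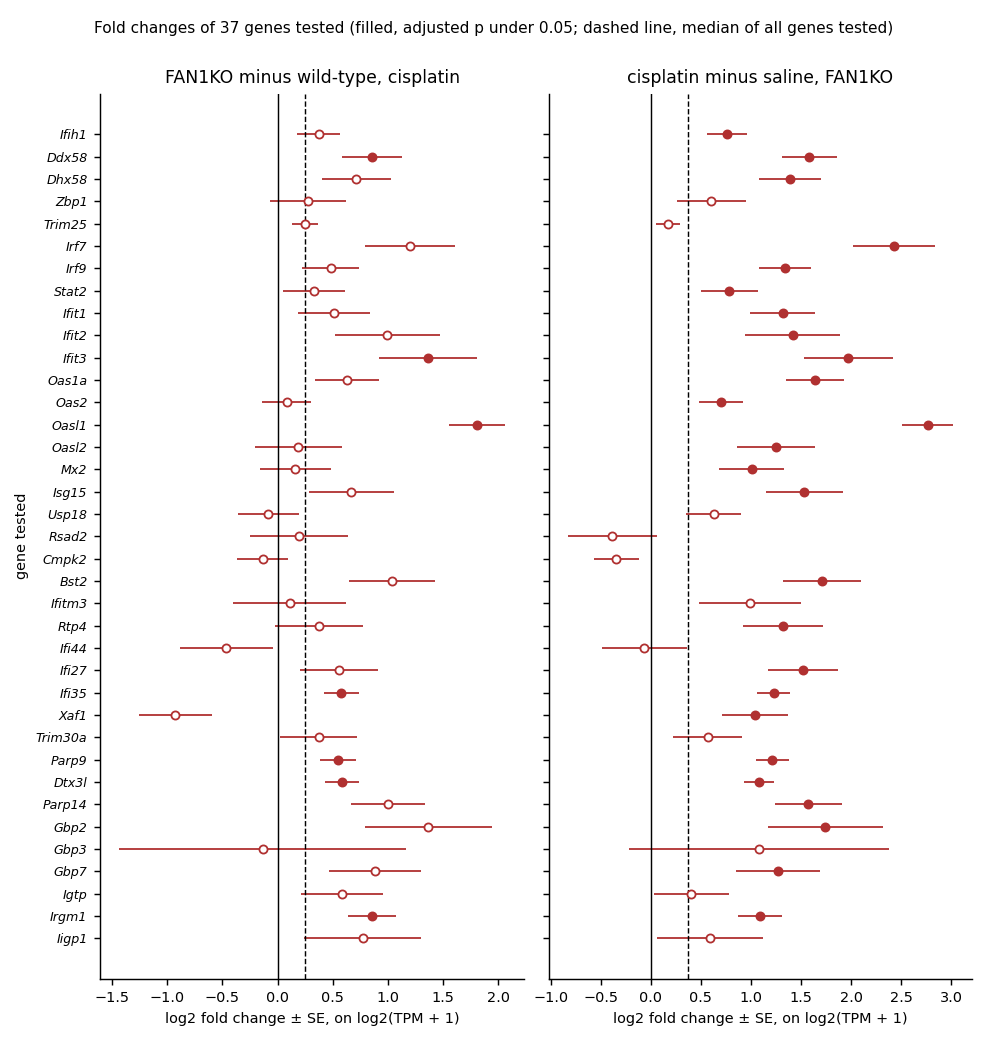
Log2 fold changes on log2(TPM + 1) with standard errors (horizontal bars) for the 37 genes tested, FAN1KO minus wild-type under cisplatin at left and cisplatin minus saline in FAN1KO at right. Filled points have an adjusted p under 0.05 from limma, 7 at left and 26 at right, and the dashed line is the median of all genes tested, 0.24 and 0.37.

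The sensors and signalling genes are the part of the program that detects nucleic acid and carries the interferon signal. Irf7 (54123), the transcription factor that amplifies interferon production, had 5.87, 9.81 and 12.8 TPM in wild-type saline, 3.76, 9.66 and 9.25 in FAN1KO saline, 24.6, 18.4 and 12.5 in wild-type cisplatin and 61.6, 45.7 and 26.6 in FAN1KO cisplatin kidneys. The 3 FAN1KO cisplatin values were above all others, by little for the third, and wild-type cisplatin 3 lay within the wild-type saline range. Irf7 rose after cisplatin in FAN1KO kidneys by 2.43 ± 0.41 (log2, SE, adjusted p = 0.00151 from limma), and its difference from wild-type cisplatin, 1.20 ± 0.41, missed the threshold (adjusted p = 0.0554). Ddx58 (230073), which encodes the RNA sensor RIG-I, had 9.87, 9.07 and 5.30 TPM in wild-type saline, 3.48, 6.39 and 8.16 in FAN1KO saline, 9.58, 10.8 and 10.1 in wild-type cisplatin and 22.2, 20.04 and 15.7 in FAN1KO cisplatin. Its FAN1KO cisplatin values did not overlap any other group, and it was higher than in wild-type cisplatin by 0.85 ± 0.27 (adjusted p = 0.0457) and than in FAN1KO saline by 1.58 ± 0.27 (adjusted p = 0.00176). Dhx58 (80861), the related regulator LGP2, had 1.52, 2.32 and 0.919 TPM, then 0.781, 1.51 and 1.33, then 2.33, 3.51 and 1.84, then 7.15, 5.10 and 2.79 in the same order of groups. The third FAN1KO cisplatin value fell inside the wild-type cisplatin range, and the gene was called only against FAN1KO saline (1.39 ± 0.31, adjusted p = 0.00606).

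Trim25 (217069), a ubiquitin ligase that activates RIG-I, was the most abundant of the 8 at a mean of 25.4 TPM and the least variable. It had 23.7, 23.8 and 23.3 TPM in wild-type saline, 26.7, 25.2 and 23.7 in FAN1KO saline, 28.7, 22.2 and 21.2 in wild-type cisplatin and 30.3, 25.7 and 29.8 in FAN1KO cisplatin kidneys, with overlap between groups and no call. Ifih1, the RNA sensor MDA5, and Irf9 and Stat2, parts of the ISRE-binding complex, were higher after cisplatin in FAN1KO kidneys with log2 fold changes of 0.76, 1.34 and 0.78, and were not called between genotypes under cisplatin (0.37, 0.48 and 0.33). Zbp1, a sensor of left-handed nucleic acid, was at 0.190 to 2.96 TPM and was not called in either comparison.

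The IFIT, OAS and MX genes encode proteins that bind or degrade viral RNA or trap viral particles, and all 8 of those tested (of 10) were higher after cisplatin in FAN1KO kidneys, beside 34.9% of all genes tested. With median-ratio scaling 4 of the 8 were still called, Ifit1, Ifit3, Oas1a and Oasl1, beside 17.2% of all genes. Oasl1 (231655), an OAS-like protein without synthetase activity that restrains translation of Irf7 RNA, had 2.09, 2.69 and 2.44 TPM in wild-type saline, 0.629, 1.46 and 2.01 in FAN1KO saline, 4.07, 3.50 and 2.91 in wild-type cisplatin and 19.7, 14.2 and 11.0 in FAN1KO cisplatin kidneys. The lowest FAN1KO cisplatin value was above every other value of the gene, and the mean was 4.29 times that of wild-type cisplatin and 11.0 times that of FAN1KO saline. Oasl1 had the largest log2 fold change of the members tested in both comparisons, at 1.80 ± 0.25 (adjusted p = 0.00141) and 2.76 ± 0.25 (adjusted p = 8.49e-05). Ifit3 (15959), an adaptor of the IFIT complex that binds viral RNA, had 12.1, 13.3 and 5.94 TPM in wild-type saline, 4.73, 19.1 and 11.7 in FAN1KO saline, 15.3, 20.8 and 13.7 in wild-type cisplatin and 51.7, 56.3 and 28.2 in FAN1KO cisplatin. Its FAN1KO cisplatin values did not overlap any other group, and it was called between genotypes (1.36 ± 0.45, adjusted p = 0.0489) and after cisplatin (1.97 ± 0.45, adjusted p = 0.00662). The transcript shares 97.4% of its length with Ifit3b at 95% identity or more, so that reads of both copies may be mixed.

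Ifit2 (15958) had 4.91, 4.66 and 1.79 TPM in wild-type saline, 1.10, 7.83 and 3.95 in FAN1KO saline, 3.45, 6.99 and 5.21 in wild-type cisplatin and 13.6, 11.0 and 8.89 in FAN1KO cisplatin kidneys. FAN1KO cisplatin was again highest without overlap, yet the difference from wild-type cisplatin was not called (0.99 ± 0.48, adjusted p = 0.152). Ifit1, which binds RNA with a foreign cap, and the double-stranded RNA sensors Oas1a and Oas2 were higher after cisplatin in FAN1KO kidneys by 1.32, 1.64 and 0.70, as were Oasl2 and Mx2 by 1.25 and 1.01. These 5 had log2 differences of 0.08 to 0.63 between genotypes under cisplatin, and each overlapped. The Oas1a transcript shares 100% of its length with Oas1g at 95% identity or more, so that reads of both genes may be mixed. The 2 members below the filter, Oas3 at up to 0.557 TPM and Mx1 at up to 2.76, both had all FAN1KO cisplatin values above all FAN1KO saline values, with means of 2.95 and 4.18 times.

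**Figure D3:**
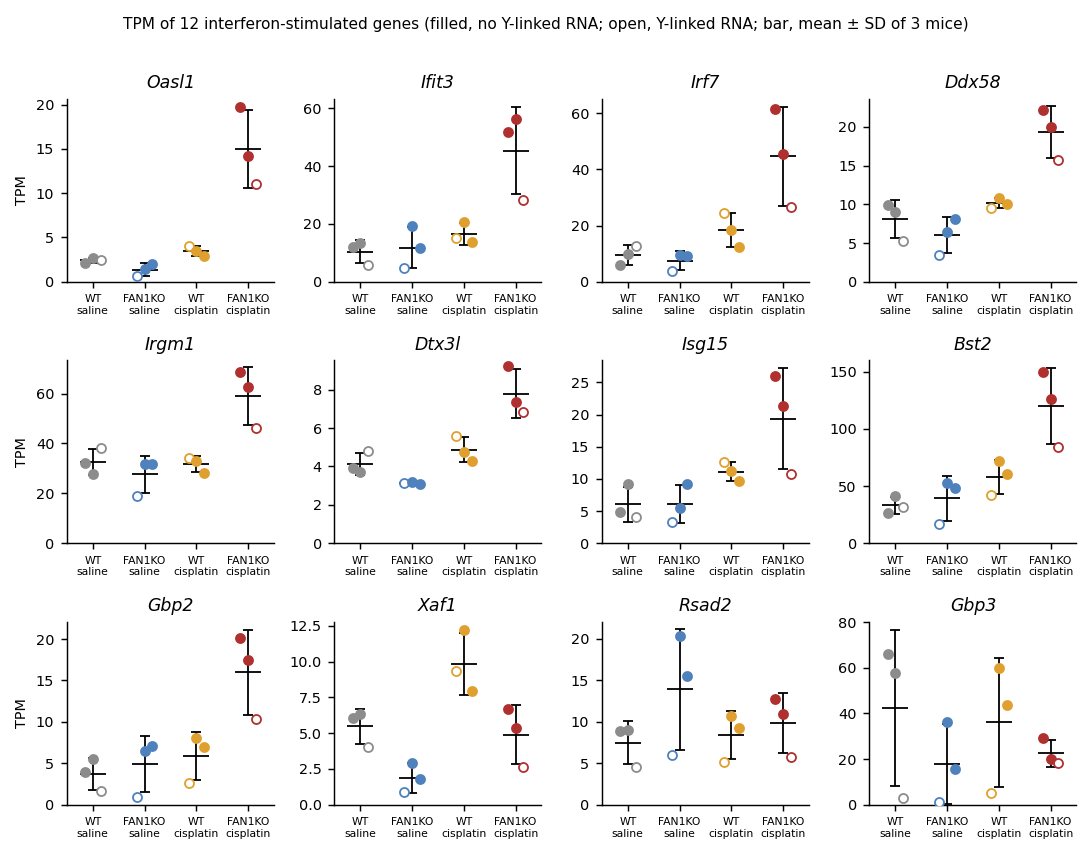
TPM of 12 members in each of the 4 groups, 1 point a mouse, open for the libraries with Y-linked RNA, with mean ± SD (n = 3) as bars and each vertical axis starting at 0. In Oasl1, Ifit3, Irf7, Ddx58, Irgm1, Dtx3l, Bst2 and Gbp2 the 3 FAN1KO cisplatin points lie above all others, in Xaf1 they lie below the wild-type cisplatin points, and in Gbp3 the open points of the first 3 groups are at 1.10 to 4.94 TPM.

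The ISG15 system and other effectors, 12 genes of mixed function, split more than the other roles. After cisplatin in FAN1KO kidneys 6 were higher, beside 34.9% of all genes tested. Between genotypes under cisplatin 1, Ifi35, was higher, a smaller share than the 19.6% of all genes. Median-ratio scaling left 4 of the 12 called higher after cisplatin and 0 between genotypes, beside 17.2% and 10.0% of all genes. Isg15 (100038882), the ubiquitin-like modifier, had 4.84, 9.18 and 4.07 TPM in wild-type saline, 3.35, 5.54 and 9.26 in FAN1KO saline, 12.6, 11.1 and 9.68 in wild-type cisplatin and 26.1, 21.3 and 10.7 in FAN1KO cisplatin kidneys. Both cisplatin groups were above both saline groups, and the third FAN1KO cisplatin value fell inside the wild-type cisplatin range. Isg15 was called after cisplatin in FAN1KO kidneys (1.53 ± 0.38, adjusted p = 0.0104) and not between genotypes (0.67 ± 0.38, adjusted p = 0.227), and 63.8% of its transcript is shared with a near-identical copy. Bst2 (69550), or tetherin, which holds budding virus at the cell surface, had 26.7, 41.1 and 31.5 TPM, then 16.9, 52.3 and 48.3, then 41.9, 71.6 and 60.2, then 149.8, 126 and 84.5 in the same order. The FAN1KO cisplatin values did not overlap those of the other groups, and the rise was called against FAN1KO saline (1.71 ± 0.39, adjusted p = 0.00709) and not against wild-type cisplatin (1.03 ± 0.39, adjusted p = 0.0793). Ifi27 (52668), a small hydrophobic protein and the most abundant member at a mean of 143 TPM, had 90.6, 129 and 200.2 TPM in wild-type saline, 40.8, 97.9 and 93.0 in FAN1KO saline, 149, 146 and 130.5 in wild-type cisplatin and 258, 223 and 157 in FAN1KO cisplatin. The wild-type groups overlapped each other, and Ifi27 rose only as a FAN1KO cisplatin against FAN1KO saline call (1.52 ± 0.35, adjusted p = 0.0074).

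Xaf1 (327959), which antagonizes the apoptosis inhibitor XIAP, went the other way between genotypes. It had 6.06, 6.30 and 4.05 TPM in wild-type saline, 0.870, 2.93 and 1.80 in FAN1KO saline, 9.34, 12.2 and 7.98 in wild-type cisplatin and 6.66, 5.38 and 2.64 in FAN1KO cisplatin kidneys. FAN1KO values were below wild-type values without overlap under saline and again under cisplatin. Neither difference passed the threshold, with log2 fold changes of -1.22 ± 0.33 under saline (adjusted p = 0.193) and -0.93 ± 0.33 under cisplatin (adjusted p = 0.0638), although the second passed with median-ratio scaling (adjusted p = 0.0173). Xaf1 was higher after cisplatin within FAN1KO kidneys (1.04 ± 0.33, adjusted p = 0.0294), although those groups overlapped.

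The antiviral enzyme Rsad2, or viperin, and the nucleotide kinase Cmpk2 lie side by side on chromosome 12 (Rsad2 at chr12:26442743-26456452 and Cmpk2 at chr12:26469117-26479837) and shared a pattern unlike that of most members. Rsad2 was highest in FAN1KO saline 2 and 3, at 20.3 and 15.5 TPM, and at 5.97 in FAN1KO saline 1, while the 3 FAN1KO cisplatin values were 12.7, 10.9 and 5.75. Cmpk2 was likewise highest in FAN1KO saline 2 and 3, at 11.8 and 12.5 TPM, against 7.48, 7.43 and 7.36 in FAN1KO cisplatin. Their fold changes after cisplatin in FAN1KO kidneys were -0.38 and -0.34, neither called, and Ifi44, an antiviral protein of the same class of response, was at -0.06. These 3 genes were named after their values were seen. Usp18, the protease that removes ISG15, Ifitm3, which blocks fusion of viral envelopes, and Trim30a were not called in either comparison, and Rtp4 was higher after cisplatin in FAN1KO kidneys (1.32 ± 0.40, adjusted p = 0.0241).

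Ifi35 was called in both comparisons, at 0.58 ± 0.16 between genotypes under cisplatin (adjusted p = 0.0283) and 1.23 ± 0.16 after cisplatin in FAN1KO kidneys (adjusted p = 0.000499). The PARP9, DTX3L and PARP14 group joins ADP-ribosyltransferases and the ubiquitin ligase partner of PARP9. All 3 were higher after cisplatin in FAN1KO kidneys, beside 34.9% of all genes tested. Parp9 (80285) had 7.57, 7.97 and 9.70 TPM in wild-type saline, 6.24, 6.95 and 6.72 in FAN1KO saline, 11.8, 10.9 and 10.6 in wild-type cisplatin and 21.7, 15.3 and 13.9 in FAN1KO cisplatin. Dtx3l (209200) had 3.90, 3.73 and 4.80 TPM, then 3.13, 3.20 and 3.08, then 5.57, 4.77 and 4.28, then 9.23, 7.35 and 6.83. In both genes FAN1KO saline was lowest and FAN1KO cisplatin highest, each without overlap with its wild-type group. Parp9 was higher than in wild-type cisplatin by 0.55 ± 0.16 (adjusted p = 0.0349) and Dtx3l by 0.58 ± 0.15 (adjusted p = 0.0218), but the 2 genes overlap on chromosome 16 and are not independent where reads fall in the shared stretch. Parp14 (547253) had 2.55, 2.96 and 1.58 TPM in wild-type saline, 1.07, 3.90 and 2.98 in FAN1KO saline, 3.00, 5.24 and 4.32 in wild-type cisplatin and 11.3, 10.8 and 6.30 in FAN1KO cisplatin, where its difference from wild-type, 1.00 ± 0.34, narrowly missed the threshold (adjusted p = 0.054).

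Guanylate-binding proteins (GBP) and immunity-related GTPases (IRG) coat and break vacuoles of microbes. After cisplatin in FAN1KO kidneys 3 of 6 were higher, beside 34.9% of all genes tested. Between genotypes under cisplatin 1 was higher, no larger a share than the 19.6% of all genes. Median-ratio scaling left 1 of the 6, Irgm1, called higher after cisplatin and 0 between genotypes, beside 17.2% and 10.0% of all genes. Irgm1 (15944), the regulatory IRG protein and the most abundant of the 6, had 32.1, 27.8 and 38.3 TPM in wild-type saline, 19.0, 31.8 and 31.9 in FAN1KO saline, 34.3, 33.1 and 28.1 in wild-type cisplatin and 68.5, 62.8 and 46.1 in FAN1KO cisplatin kidneys. The first 3 groups overlapped and FAN1KO cisplatin stood above them, 1.86 times the wild-type cisplatin mean (0.86 ± 0.22, adjusted p = 0.0184) and 2.14 times the FAN1KO saline mean (1.09 ± 0.22, adjusted p = 0.00344). Gbp2 (14469) had 3.92, 5.46 and 1.63 TPM, then 0.948, 6.51 and 7.09, then 2.57, 8.10 and 6.96, then 20.2, 17.5 and 10.3 in the same order. FAN1KO cisplatin was highest without overlap, and the wide spread of the other groups left the genotype difference of 1.37 ± 0.57 uncalled (adjusted p = 0.108) while the cisplatin difference of 1.74 ± 0.57 was called (adjusted p = 0.0342). Gbp7 (229900) had 6.69, 7.42 and 4.83 TPM in wild-type saline, 1.49, 7.09 and 4.99 in FAN1KO saline, 3.14, 9.03 and 5.52 in wild-type cisplatin and 12.1, 11.8 and 9.18 in FAN1KO cisplatin, and was likewise called only against FAN1KO saline (1.27 ± 0.42, adjusted p = 0.0336).

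Gbp3 (55932) was the member with the widest spread, and is named after its values were seen. It had 66.1, 57.6 and 2.94 TPM in wild-type saline, 1.10, 36.2 and 15.7 in FAN1KO saline, 4.94, 60.1 and 43.6 in wild-type cisplatin and 29.3, 19.9 and 18.2 in FAN1KO cisplatin kidneys. The low values of the first 3 groups were those of the libraries with Y-linked RNA, which were also low in Pecam1. The standard error of its genotype difference under cisplatin was therefore 1.30 around -0.14, and without those libraries the difference was -1.05. Igtp and Iigp1 were not called in either comparison.

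Without cisplatin, no member was called between genotypes by limma (0 of 37 higher, beside 0.341% of all genes, and 0 lower, beside 0.427%), and voom on the recovered reads also called 0. At an unadjusted p under 0.05, 4 members were lower in FAN1KO saline kidneys, namely Oasl1, Ifi27, Ifi35 and Xaf1, and 0 were higher. The share of all genes at that threshold was not worked out, so these 4 do not set the members apart from other genes. The median was -0.19 for members and -0.04 for all genes tested. Its direction rested on FAN1KO saline 1, without which it was 0.05. Between the 2 libraries with Y-linked RNA it was -0.49 over 39 members (5 above 0), and among the others it was 0.06 (24 above 0). For 5 members, Oasl1, Ifi35, Xaf1, Parp9 and Dtx3l, all FAN1KO saline values lay below all wild-type saline values (13.5%), beside 7.83% of all genes tested, and for 0 members they lay above, beside 4.62%. Median-ratio scaling also called 0 members under saline, beside 0.541% of all genes higher and 0.494% lower. Apart from Xaf1, these genes then had all FAN1KO cisplatin values above all wild-type cisplatin values.

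In wild-type kidneys cisplatin gave smaller differences of the same direction. No member was called by limma or by voom (0 higher, beside 0.0601% of all genes, and 0 lower, beside 0.0% of all genes). At an unadjusted p under 0.05 from limma 7 members were higher, and the share of all genes at that threshold was not worked out. The median log2 fold change was 0.47 for members and 0.08 for all genes tested, and 34 of 37 members were above 0. Without wild-type cisplatin 2 the median was 0.30, and it was 0.56 between the 2 libraries with Y-linked RNA and 0.34 among the others (over 39 members). The wild-type cisplatin values lay above the wild-type saline values without overlap for 14 members, 13 of them tested (35.1%), beside 5.2% of all genes tested. Of the OAS and MX genes Oasl2 had the largest value, 0.95, followed by Oas1a at 0.78, and Isg15 was at 0.85. The GBP and IRG genes did not share this, with 3 of 6 above 0 and Igtp lowest at -0.49.

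The cisplatin effect was larger in FAN1KO than in wild-type kidneys for 3 of 37 members by the test of that difference, the genotype by cisplatin interaction in limma (8.11%, beside 5.22% of all genes tested), and smaller for 0 (beside 1.02%). Oasl1 differed by 2.37 ± 0.36 (adjusted p = 0.0106), Ifi35 by 0.97 ± 0.23 (adjusted p = 0.0382) and Dtx3l by 0.89 ± 0.22 (adjusted p = 0.0411), on the log2 scale. Parp9 and Irgm1 came next at 0.84 and 1.12, both with an adjusted p of 0.0559. The median was 0.84 for members and 0.28 for all genes, and 34 of 37 were above 0. Only Oasl1 kept this call with median-ratio scaling, where 2.66% of all genes were called higher and 1.42% lower, and whichever of the 12 libraries was left out.

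The libraries with Y-linked RNA changed the comparison between genotypes under cisplatin. Taken alone, FAN1KO cisplatin 3 differed from wild-type cisplatin 1 by a median of 0.07 (log2) over the 39 members, with 24 above 0. Measured from the wild-type saline means, the median over all genes tested was 0.19 in FAN1KO cisplatin 3 and -0.09 in wild-type cisplatin 1. The median of the 37 members tested was 0.40 and 0.34 in these libraries. The other 2 libraries of each group differed by a median of 0.72, with 34 of 39 above 0. Over all genes tested in the 8 libraries without Y-linked RNA, the median of that comparison was 0.22. In the fit of the 8 libraries without Y-linked RNA, which was chosen after seeing the data, 23 of 37 members were called higher (62.2%), beside 28.3% of all genes, and 0 lower, beside 7.87%. These 23 included the 7 above and added, among others, Irf7, Irf9, Stat2, Isg15, Ifit1, Ifit2, Oas1a, Bst2, Ifi27, Parp14 and Gbp2. Irf7, for example, differed by 1.74 in the 8 libraries and by 0.11 between the 2 libraries with Y-linked RNA.

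With Y-linked RNA as a covariate, 15 of 37 members were higher between genotypes under cisplatin (40.5%), beside 40.3% of all genes, and 1 lower (beside 8.6%), and 30 were higher after cisplatin in FAN1KO kidneys (81.1%), beside 52.9%. The same fit called 13 interactions above 0 (35.1%, beside 27.3%) and 0 below (beside 4.31%), and under saline it called Rsad2 higher (beside 1.16% of all genes) and Xaf1 lower (beside 1.66%) in FAN1KO kidneys. In the 8 libraries without Y-linked RNA 11 interactions were above 0 (29.7%, beside 13.0%) and 1, Cmpk2, below (beside 2.94%), and under saline Rsad2 was again called higher (beside 0.777%) and 0 were lower (beside 1.23%). Voom on the recovered reads called 9 members higher between genotypes under cisplatin (24.3%, beside 20.2% of all genes) and 1, Xaf1, lower (beside 4.46%). It called 26 higher after cisplatin in FAN1KO kidneys (70.3%, beside 33.0%) and 0 lower (beside 5.14%), and 3 interactions above 0 (8.11%, beside 4.78%) and 0 below (beside 0.922%).

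**Figure D4:**
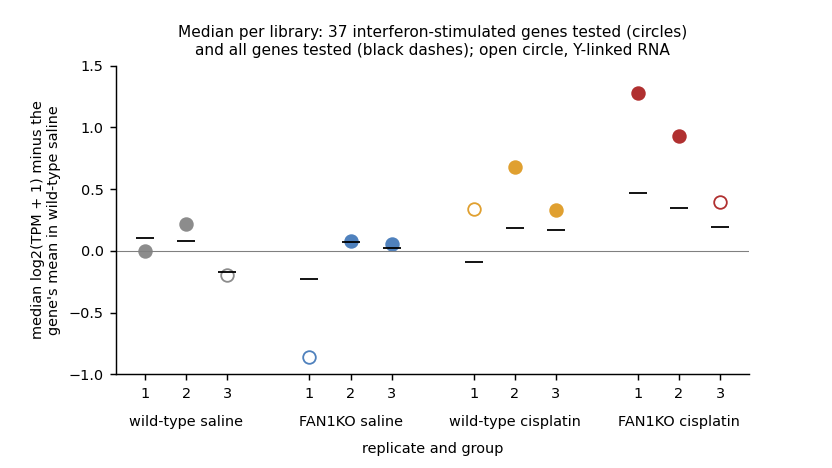
For each library (replicates 1 to 3 of each group on the horizontal axis), the median over the 37 members tested of log2(TPM + 1) minus the gene's mean in wild-type saline (circles, open for Y-linked RNA) and the same over all genes tested (black dashes). FAN1KO cisplatin 1 and 2 are at 1.28 and 0.93, FAN1KO cisplatin 3 is at 0.40, wild-type cisplatin libraries are at 0.33 to 0.68, and FAN1KO saline 1 is lowest at -0.86.

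For cisplatin against saline in FAN1KO kidneys both sets of libraries gave similar values, with a median of 1.20 between the 2 libraries with Y-linked RNA (38 of 39 members above 0) and 1.08 among the others (36 of 39), and the 8-library fit called 27 members higher (73.0%, beside 44.0% of all genes) and 2 lower (beside 8.54%). The 2 lower were Rsad2 and Cmpk2. The library with Y-linked RNA was the lowest of its group for 38 of 39 members in FAN1KO cisplatin, 36 in FAN1KO saline, 23 in wild-type saline and 13 in wild-type cisplatin, where it was the lowest for 65.4%, 69.3%, 68.2% and 69.5% of all genes tested. Whether sex, batch or the amount of endothelium in these samples bears on the members was not tested.

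The rest of the pathway, 52 genes listed by role, was read beside the members. This list was chosen with earlier results of these data known, so the shares below only describe it. The ligands were at or near 0: Ifnb1, Ifna1, Ifna2, Ifna4, Ifna5, Ifnl2 and Ifnl3 had 0 reads in all 12 libraries, Ifne had 1 read in 1 library, Ifng had at most 6 reads (0 to 0.238 TPM) and Ifnk at most 10 (0 to 0.435 TPM). A count of 0 allows up to 3 reads in a library, or 0.0599 to 0.144 TPM for a gene of 1 kilobase, by counting error alone. None of the 10 ligands passed the filter for testing.

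Receptors were higher in FAN1KO cisplatin kidneys for 4 of 6 genes between genotypes and for 4 of 6 against FAN1KO saline (66.7% in both, beside 19.6% and 34.9% of all genes tested). Ifngr1 (15979), the binding chain of the interferon gamma receptor, had 21.1, 20.9 and 18.6 TPM in wild-type saline, 16.8, 24.7 and 23.3 in FAN1KO saline, 20.1, 31.9 and 26.4 in wild-type cisplatin and 88.5, 62.6 and 80.1 in FAN1KO cisplatin. The FAN1KO cisplatin values did not overlap any others and averaged 2.94 times wild-type cisplatin (1.53 ± 0.19, adjusted p = 0.000891), and here the library with Y-linked RNA was not the lowest. Ifngr2 (15980), the signalling chain, was higher by 1.07 ± 0.17 (adjusted p = 0.00237), the lambda receptor chain Ifnlr1 (242700) by 0.77 ± 0.18 (adjusted p = 0.0122) and the type I receptor chain Ifnar1 (15975) by 0.68 ± 0.21 (adjusted p = 0.0374). Ifnar2 and Il10rb, their partners, were at 0.17 and -0.02 and were not called. The interaction was also called for Ifngr1 (1.46), Ifngr2 (1.28) and Ifnlr1 (1.01), the last not with median-ratio scaling (adjusted p = 0.0542).

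**Figure D5:**
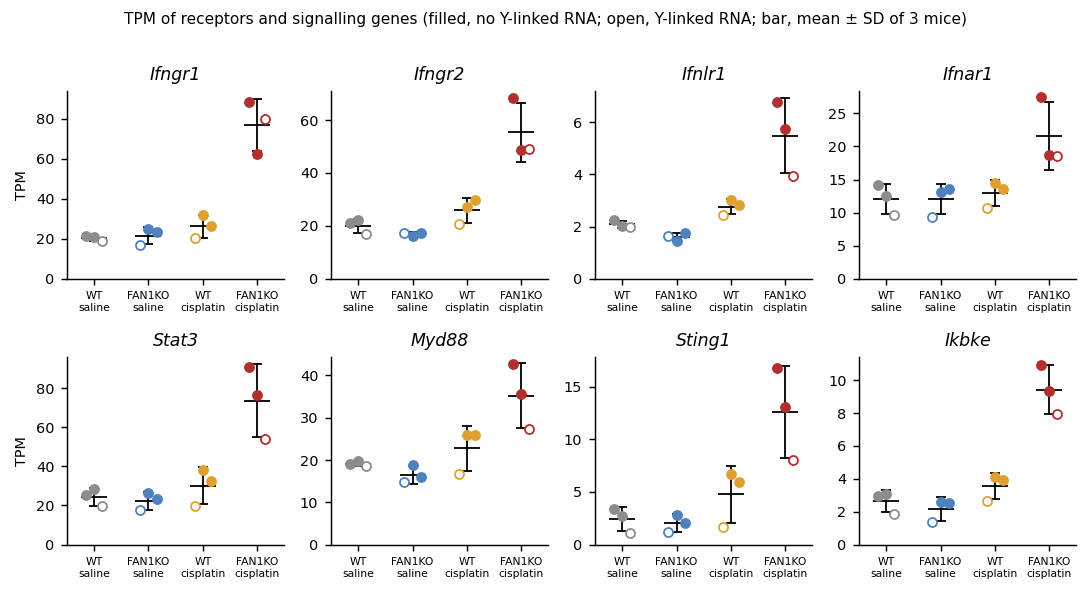
TPM of 4 receptor chains and 4 signalling genes in each group, 1 point a mouse, open for the libraries with Y-linked RNA, with mean ± SD (n = 3) as bars and each axis starting at 0. FAN1KO cisplatin points lie above all others for every gene shown.

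Of 10 kinases and transcription factors, Stat3 (1.28 ± 0.27, adjusted p = 0.00801), which chiefly serves interleukin-6 type cytokines, and Jak1 (0.47 ± 0.12, adjusted p = 0.0217) were higher between genotypes under cisplatin, and 6 were higher after cisplatin in FAN1KO kidneys. Of all genes tested, 19.6% and 34.9% were called higher in these comparisons, so the share between genotypes was close to that of all genes. Jak1 was not called with median-ratio scaling (0.21, adjusted p = 0.274). That scaling left 1 and 3 of the 10 called higher, beside 10.0% and 17.2% of all genes. Irf1 was higher after cisplatin in FAN1KO kidneys (1.79 ± 0.56, adjusted p = 0.0266) and not called between genotypes (1.30 ± 0.56, adjusted p = 0.113).

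Of 14 genes of nucleic acid sensing and adaptors, 11 were tested, and Ikbke, Sting1 and Myd88 were higher between genotypes under cisplatin. Ikbke, a kinase that activates interferon regulatory factors, differed by 1.20 ± 0.23 (adjusted p = 0.00544), and Sting1 (72512), the adaptor of cytosolic DNA sensing, by 1.32 ± 0.44, just inside the threshold (adjusted p = 0.0497), which neither it nor Myd88 passed with median-ratio scaling (adjusted p of 0.0631 and 0.0824). Sting1 was at 1.13 to 3.37 TPM in wild-type saline, 1.16 to 2.84 in FAN1KO saline, 1.70 to 6.69 in wild-type cisplatin and 8.00 to 16.7 in FAN1KO cisplatin kidneys. Cgas, the DNA sensor upstream of it, was below the filter at 0.155 to 1.06 TPM, with the 3 highest values in FAN1KO cisplatin. Of 12 nucleases and restraining genes, Socs3 (1.71 ± 0.43), Rnaseh2a (0.80 ± 0.15) and Dnase2a (0.65 ± 0.19) were higher between genotypes, Dnase2a not with median-ratio scaling (adjusted p = 0.135). Over the whole list 12 of 39 tested were higher between genotypes under cisplatin and 20 of 39 after cisplatin in FAN1KO kidneys, with 0 lower in both, where 19.6% and 34.9% of all genes tested were called higher. These are 30.8% and 51.3% of the list, and with median-ratio scaling 8 and 15 were higher and 1, Mavs, was lower after cisplatin, beside 10.0% and 17.2% of all genes higher.

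Markers of other cells moved in the same libraries. Summed TPM of 8 macrophage genes ran from 53.6 to 93.4 in wild-type saline and 37.6 to 111 in FAN1KO saline kidneys. The sum was 50.8 to 151 in wild-type cisplatin and 144 to 427 in FAN1KO cisplatin kidneys, with no gene at 0. In FAN1KO cisplatin C1qa and C1qc had the highest means of the 8, 103 and 62.9 TPM. Csf1r did not rise, with means of 37.6, 26.5, 33.5 and 26.3 TPM in the same order of groups, and Adgre1 and Mrc1 overlapped between groups. Of the 8 macrophage genes, 5 were higher after cisplatin in FAN1KO kidneys, beside 34.9% of all genes tested. Between genotypes under cisplatin 1, Cd68, was higher by limma (1.56 ± 0.51, adjusted p = 0.0499, and 0.0613 with median-ratio scaling), beside 19.6% of all genes tested. The 5 endothelial markers summed to 37.7 to 136, 37.3 to 172, 39.5 to 168 and 20.2 to 71.0 TPM in the same order, and 6 T cell markers to 1.28 to 3.03, 2.48 to 6.78, 2.27 to 9.90 and 5.37 to 17.2. Of plasmacytoid dendritic cell markers, Siglech was at most 0.605 TPM and Ccr9 at most 0.172, while Klk1b27 and Cox6a2 were at 1.78 to 29.2 TPM. The B cell, NK cell and neutrophil lists were each at most 10.5 TPM in sum in any library, and Ly6g was at 0 in all wild-type saline libraries. The tubule injury genes Havcr1, Lcn2 and Krt20 summed to 711 to 1071 TPM in FAN1KO cisplatin and to at most 110.3 in any other library, and all 3 were called higher in both comparisons. In bulk tissue, more cells of a type and more RNA per cell cannot be told apart, and the part of these cells in the members' values was not tested.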

How the data were processed

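Whole-kidney RNA from 12 mice was sequenced as paired-end libraries, and 1 table of TPM was deposited. The authors computed these TPM from their reads, and the submitters' processing notes name the mouse build mm10 and limma. The aligner and annotation are not given in the sources used here. No depth is stated. Whole reads were recovered from the TPM for 22557 of 22557 genes with any value, each within 0.02 read of a whole number, or 0.1 for deeply read genes left over. Odd counts made up 48.6% to 50.3% of counts above 10 in each library, and 260 of 263 small RNA genes came out at their annotated length. This recovery and the limma fit were each tested on simulated data.

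Groups followed the labels. Genes that reached a TPM of 1 in 3 or more libraries were tested by limma 3.58.1 in R 4.3.3 on log2(TPM + 1), with 1 mean per group over all 12 libraries, a trend in the prior variance, and Benjamini-Hochberg adjustment over all 14972 genes at 0.05. A fold change is therefore on the log2(TPM + 1) scale, which understates low genes. The 5 comparisons were the 4 between groups that differ in 1 factor and the interaction. For single genes the exact permutation test of 3 against 3 mice cannot go below 0.1.

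The members and gene lists were chosen with earlier results of these data known. Genes given library by library were, for each role, the 3 with the largest difference between genotypes under cisplatin and the most abundant; others are marked as chosen after their values were seen. Relatives were sought among GENCODE transcripts and promoters taken from RefSeq (GRCm38.p6). Tables were handled with Python 3.11.15, pandas 2.3.3, numpy 2.4.6 and matplotlib 3.10.9. Alternatives were median-ratio scaling, another pseudocount and other filters, a fit without the trend, only the groups compared, a replicate block, a Y-linked covariate, each library left out, and, chosen after seeing the data, voom on the recovered reads and the 8 libraries without Y-linked RNA. All value columns were used, and 1904 gene numbers had no name.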

Additional observations from a re-analysis of the deposited data

Results flagged for a closer look

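The cisplatin effect differed between genotypes, by the interaction term in limma, for 3 of 37 interferon-stimulated genes tested (8.11%) and 5 of 39 genes of the wider pathway (12.8%), beside 5.22% of all genes called higher. On the log2(TPM + 1) scale, the effect in FAN1KO kidneys minus that in wild-type kidneys was 2.37 for Oasl1, 0.97 for Ifi35 and 0.89 for Dtx3l. Among receptor chains it was 1.46 for Ifngr1, 1.28 for Ifngr2 and 1.01 for Ifnlr1. It was 1.41 for the kinase Ikbke and 1.05 for Rnaseh2a, a subunit of the enzyme that removes RNA from DNA. Groups of 3 mice are too small for a test of single outlying samples.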

How the results depend on the processing

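Median-ratio scaling left 1 member higher and 1 lower between genotypes under cisplatin, 17 higher and 1 lower after cisplatin in FAN1KO kidneys, and 1 interaction. In the 8 libraries without Y-linked RNA these counts were 23 and 0, 27 and 2, and 11 interactions above and 1 below 0, with 1 member higher between genotypes under saline. A Y-linked covariate gave 15 higher and 1 lower between genotypes under cisplatin, 13 interactions, and 1 higher and 1 lower under saline. Voom on recovered reads called 1 lower, Xaf1, between genotypes under cisplatin. Leaving out each library in turn gave 1 to 10 members higher between genotypes under cisplatin, 15 to 27 higher and 0 to 1 lower after cisplatin in FAN1KO kidneys, 1 to 5 interactions, and a median interaction of 0.42 to 1.04, lowest without FAN1KO saline 1. The share of all genes called with a library left out was not worked out, and the cause of these changes was not tested. With the replicate number as a replicate block, 1 member was lower between genotypes under cisplatin and 1 interaction was called. Same-numbered samples did not deviate together (mean correlations of -0.24 to -0.14), so the numbers were not taken as pairs. The other 217 values moved by less than the spread between mice or, for counts, stayed within 1.5 times. Among them the median between genotypes under saline, -0.19, turned to 0.05 without FAN1KO saline 1 and to 0.06 in the 8 libraries. With 3 mice a group, differences of the size of the spread between mice were not detectable.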
